A study of Mus musculus with 40 samples.

Results

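Liver zonation markers were 10 genes of the 55487 listed, taken by name. The 6 pericentral genes were Glul, Axin2, Tbx3, Lgr5, Slc1a2, and Rhbg, and the 4 periportal genes were Hal, Sds, Gls2, and Hsd17b13. Their RNA was followed by RNA sequencing in whole livers of WT mice and of littermates lacking Nampt, an enzyme of NAD synthesis, in hepatocytes (HNKO). In HNKO mice (Nampt fl/fl, Alb-Cre+/-) both copies of Nampt are floxed and Cre recombinase is driven by the albumin promoter, so that the gene is deleted in cells that have used this promoter. The WT mice carry the floxed alleles without Cre. All were 9-week-old female C57BL/6JBomTac mice on purified diet (PD), taken after 3, 6, 12, or 21 days of feeding. In the labels these days stand under age, but the methods of the study count them from the diet switch, and they are used here as days of feeding. Each of the 40 libraries came from the liver of 1 mouse. HNKO libraries 17 and 18 of day 21 are described as having failed quality control and were left out, which left 38 libraries. WT groups held 5, 4, 5, and 5 mice and HNKO groups 5, 5, 6, and 3 mice at days 3, 6, 12, and 21.

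Blood crosses the liver lobule from the portal tract to the central vein, and hepatocytes along this path carry out different tasks. Periportal hepatocytes take up ammonia and amino acids first and break them down, whereas a thin layer of hepatocytes around the central vein recaptures the remaining ammonia as glutamine. Wnt ligands from the endothelium of the central vein act through β-catenin to switch on the pericentral genes, and weak Wnt signaling is a condition of the periportal ones.

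Raw counts of the 38 libraries summed to between 16151037 and 64181492 (median 26466478.5). Nampt itself was -0.83 (SE 0.12, adjusted p = 2.61e-06) on the log2 scale, HNKO minus WT, as the mean over the 4 days, and no HNKO library overlapped WT at days 3, 12, and 21. The 12 hepatocyte markers without strong zonation, such as Alb and Apoa2, summed to 113000–170000 CPM (counts scaled to library size) in WT and 79300–145000 in HNKO libraries. Of the 12, 7 were lower and 1 higher over the days at an adjusted p under 0.05. Of all genes, 17.3% were called lower and 19.2% higher in this test. The 5 cholangiocyte markers were all higher and summed to 34–48.6 CPM in WT and 105–751 CPM in HNKO. Of 6 stellate cell and myofibroblast markers 4 were higher and 1 lower, with sums of up to 1010 CPM in HNKO. In WT and HNKO libraries, endothelial markers summed to 424–531 and 416–512 CPM, macrophage markers to 207–554 and 259–685 CPM, and leukocyte markers to 26.1–70.4 and 39.9–120 CPM. Over the days 1 of 5 endothelial markers was called lower, 3 of 5 macrophage markers higher, and 1 of 3 leukocyte markers higher. No marker of these lists was at 0 in any library. Whole liver was sequenced, so fewer cells of a type and less RNA per cell cannot be told apart in the values below. The part of these shifts in the results on zonation markers was not tested. The fold changes, their calls, and the correlations between markers were also computed on a scale set by the 12 hepatocyte markers. That scale is their summed count, in which Alb weighs most (median 2161314 counts, with Apob next at 470519). On it Alb was at -0.109 over the days, and the 12 markers had a median log2 fold change of 0.126, with 7 called higher and 3 lower. The scale thus follows Alb in large part and does not set the 12 markers as a set to 0.

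The promoter table (RefSeq, GRCm38.p6) held a window for 5 of the 10 markers, Glul, Axin2, Slc1a2, Hal, and Hsd17b13. The windows reach from 250 bases before the start of a gene to 50 bases after it and were searched for ATCAAAG, a site of the TCF/LEF factors that carry the Wnt signal, and for CAAAGTCCA, a site of HNF4, a hepatocyte factor, on both strands. The last 5 letters of the first word could overlap the second, but none of the 5 windows held both. ATCAAAG was found in 2 of the 5 windows, beside 3.73% of all 32851 windows, and CAAAGTCCA in 0 of the 5, beside 0.475%. One match was in the pericentral gene Slc1a2 at chr2:102706188-102706437 (+ strand) and one in the periportal gene Hal at chr10:93488518-93488767 (+ strand). The bases before the start are shown for these, and for Glul at chr1:153899679-153899928 (+ strand) as a pericentral gene without a match, with the match in capitals. In Hal the match lies on the opposite strand and reads CTTTGAT. The Slc1a2 window lies within the gene as GENCODE draws it and not at its first base.
Slc1a2: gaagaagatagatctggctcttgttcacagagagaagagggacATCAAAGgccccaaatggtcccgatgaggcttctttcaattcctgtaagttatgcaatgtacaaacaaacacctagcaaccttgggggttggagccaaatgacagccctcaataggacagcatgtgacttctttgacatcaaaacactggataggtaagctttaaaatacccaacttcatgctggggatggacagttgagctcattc
Hal: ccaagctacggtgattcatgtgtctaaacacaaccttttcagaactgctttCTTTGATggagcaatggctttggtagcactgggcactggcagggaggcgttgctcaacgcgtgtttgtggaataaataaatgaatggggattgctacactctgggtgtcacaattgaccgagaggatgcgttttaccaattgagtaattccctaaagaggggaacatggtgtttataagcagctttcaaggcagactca
Glul: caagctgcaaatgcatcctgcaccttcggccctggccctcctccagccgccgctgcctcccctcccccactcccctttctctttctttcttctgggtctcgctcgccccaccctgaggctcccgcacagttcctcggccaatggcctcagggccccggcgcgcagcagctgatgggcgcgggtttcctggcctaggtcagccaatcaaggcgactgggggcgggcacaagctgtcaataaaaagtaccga

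Expression of the markers spanned a wide range in WT livers. On the scale of log2 CPM per kilobase of exon, over the 19 WT libraries, Glul, which makes glutamine from glutamate and ammonia, was highest at 8.69 ± 0.27 (SD, n = 19). Below it came the periportal genes Hsd17b13 at 7.17 ± 0.27, Hal at 6.76 ± 0.23, Gls2 at 6.74 ± 0.28, and Sds at 6.36 ± 0.37, and the ranges of neighbors among these 4 overlapped. Slc1a2, a glutamate transporter, followed at 4.44 ± 0.42, apart from its neighbors on either side. Tbx3 at 2.37 ± 0.44, Axin2 at 1.42 ± 0.40, Rhbg at 0.65 ± 0.52, and Lgr5 at 0.32 ± 0.39 were lowest, each overlapping the next. The exon length of Rhbg includes 61.4% of bases shared with the gene Gm38392, so that its place in this order is uncertain. In HNKO livers the order was the same except that Gls2 (6.35 ± 0.54) stood above Hal (6.30 ± 0.61), whose ranges overlapped. The median WT level of Glul was 424 CPM per kilobase, against 1.28 for Lgr5.

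HNKO and WT livers were compared at each day to ask whether the zonated genes differ. An adjusted p under 0.05 in edgeR's quasi-likelihood test was called a difference. At day 3, 0 of the 10 markers were called, beside 4.66% of the 20297 tested genes, and 1 had an unadjusted p under 0.05. At day 6 it was 0 of 10 beside 12.8% (2 unadjusted), at day 12 0 of 10 beside 7.82% (1 unadjusted), and at day 21 0 of 10 beside 3.12% (0 unadjusted). DESeq2 also called 0 of the 10 on each day. The median log2 fold change of the 10 markers was -0.30, -0.31, -0.20, and -0.27 at days 3, 6, 12, and 21, beside 0.01, -0.01, 0.00, and -0.01 for all tested genes.

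As a mean over the 4 days, 3 of the 10 markers were lower in HNKO, the pericentral Tbx3 and the periportal Hal and Gls2. Tbx3 changed by -0.48 (SE 0.11, adjusted p = 0.000731) on the log2 scale by edgeR. Gls2 changed by -0.39 (SE 0.13, adjusted p = 0.0186) and Hal, the closest of these to the threshold, by -0.38 (SE 0.15, adjusted p = 0.0444). The background was 36.4% of all genes called in this test, 17.3% lower and 19.2% higher. Counting both directions, the share of markers called was no larger than that of all genes. All 3 calls were lower, 3 of 10 beside 17.3%, and this difference was not tested. The medians of the 6 pericentral and 4 periportal markers were -0.18 and -0.24, beside -0.01 for all genes. When libraries were scaled by the summed hepatocyte markers, the median of all genes moved to 0.36, none of the 3 markers was called (Tbx3 at -0.12, Hal at -0.07, and Gls2 at -0.06), and Glul and Hsd17b13 were called as higher, at 0.22 (adjusted p = 0.0168) and 0.27 (adjusted p = 0.0146). Relative to the median of all genes, the median of the 10 markers was -0.18 on both scales.

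**Figure D1:**
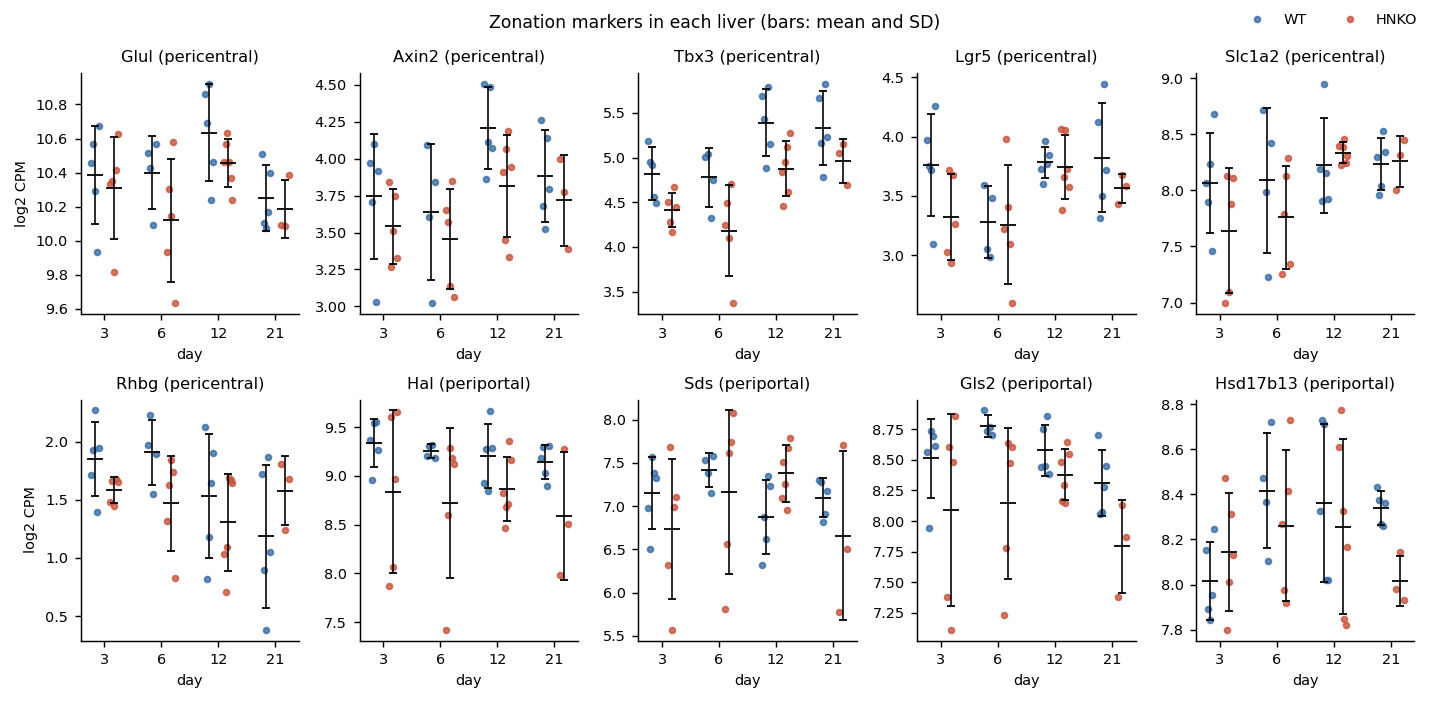
Log2 CPM of the 10 zonation markers (y axis, its own range in each panel) in each liver by day of PD feeding (x axis), with WT in blue and HNKO in red. Each point is 1 liver and black bars are the mean and SD of a group of 3 to 6 livers. The Tbx3 values of WT and HNKO livers overlap at each day.

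**Figure D2:**
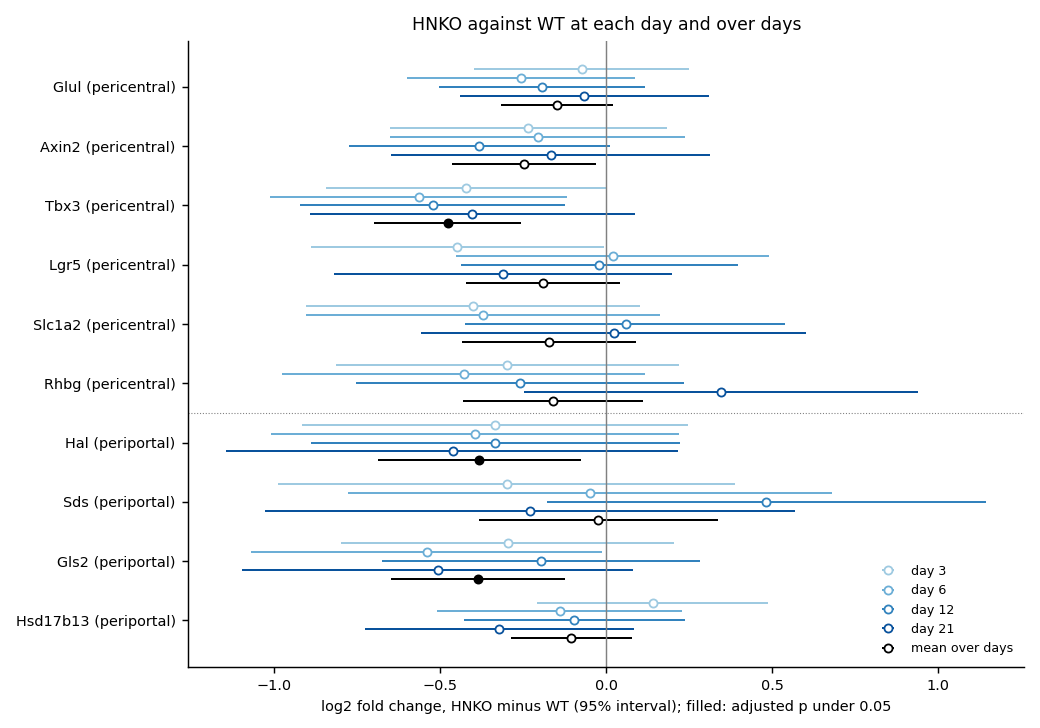
Log2 fold change (x axis, HNKO minus WT, TMM scaling) of each marker at each day and as the mean over days, with 95% intervals. Filled points, at an adjusted p under 0.05, are those of Tbx3, Hal, and Gls2 over days, which were not called when scaled by hepatocyte markers. On that scale the means over days of the other 7 markers were above 0, as was the median of all genes at 0.36.

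Tbx3 (ENSMUSG00000018604.18, chr5:119670669-119684724, + strand, GRCm38) encodes a T-box transcription factor. At day 3 its log2 CPM was 5.19, 4.49, 4.95, 4.92, and 4.56 in WT and 4.51, 4.67, 4.45, 4.28, and 4.17 in HNKO livers, in order of library number. At day 6 it was 4.74, 5.0, 5.04, and 4.33 in WT and 4.70, 3.37, 4.24, 4.5, and 4.10 in HNKO livers. The groups overlapped at both days, with 3 of 5 HNKO livers under every WT liver at each. At day 12 WT livers had 5.69, 5.43, 4.89, 5.79, and 5.15, and HNKO livers ranged from 4.46 to 5.28 (median 4.89, n = 6). At day 21 it was 5.67, 5.17, 4.79, 5.82, and 5.23 in WT and 5.05, 5.16, and 4.69 in HNKO livers. Here 3 of 6 and 1 of 3 HNKO livers lay under every WT liver. Its log2 fold changes were -0.42, -0.56, -0.52, and -0.40 at days 3, 6, 12, and 21, with adjusted p-values of 0.241, 0.0874, 0.0912, and 0.397. The library numbers fall into a series of 1 to 21 and one of 22 to 41. At day 21 all HNKO livers used were of the later series, and WT livers were of both. Tbx3 was lower in HNKO in all 7 comparisons within a day and series, by -0.84 to -0.30. Its call over days was kept in each of the 38 fits that left out 1 library (adjusted p from 0.000296 to 0.00341).

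Axin2, a scaffold of the β-catenin destruction complex and itself a Wnt target, did not pass the test over days at -0.25 (SE 0.11, adjusted p = 0.0692). At day 12, when it was furthest apart, WT livers averaged 4.21 ± 0.28 (SD, n = 5) and those of HNKO mice 3.82 ± 0.34 (SD, n = 6), a difference of -0.38 (95% interval -0.78 to 0.01). In 6 of 38 fits that left out 1 library it was called over days, without WT libraries 15, 21, 26, and 28 or HNKO libraries 6 and 32. Axin2 was lower in HNKO in 6 of the 7 comparisons within a day and series.

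By edgeR with TMM scaling, Glul was not called on any day or over the days. WT means of log2 CPM were 10.39, 10.40, 10.63, and 10.25 at days 3, 6, 12, and 21, and HNKO means 10.31, 10.12, 10.46, and 10.19, with an SD of 0.14 to 0.36 within groups. The difference over days was -0.15 (95% interval -0.32 to 0.02), which spans a fall of up to 0.32 on the log2 scale. On the scale set by hepatocyte markers, which moved all genes upward, Glul was called over days as higher at 0.22 (adjusted p = 0.0168). Relative to the median of all genes on that scale it was -0.145. Of the 51-base stretches of Glul transcripts, 12.3% also occur in other genes, chiefly the pseudogene Glns-ps1.

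Slc1a2 was lower on average at the earlier days and not at the later ones. Its difference was -0.40 (95% interval -0.90 to 0.10) at day 3 and -0.37 (95% interval -0.90 to 0.16) at day 6. It was 0.06 (95% interval -0.42 to 0.54) at day 12 and 0.02 (95% interval -0.56 to 0.60) at day 21. None passed the test, and neither did a change of the difference between days (edgeR, unadjusted p = 0.43). At day 6 the difference was -0.752 within libraries 1 to 21 and 0.116 within libraries 22 to 41. At day 21 it was -0.175 within libraries 22 to 41. Its HNKO livers at day 3 had 6.99, 7.88, 8.11, 8.13, and 7.10, and WT livers 8.07, 8.68, 7.90, 8.23, and 7.46. At day 12 the HNKO livers lay close together, from 8.23 to 8.46 (median 8.35, n = 6), within the WT values of 8.19, 7.91, 8.95, 8.16, and 7.92.

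Lgr5, a receptor of R-spondins that strengthens Wnt signaling, had its largest difference at day 3, -0.45 (SE 0.22, adjusted p = 0.231). Its values there were 3.97, 4.26, 3.75, 3.72, and 3.10 in WT and 3.03, 3.67, 3.27, 3.72, and 2.93 in HNKO livers. They overlapped, and the differences at days 6 and 12 were 0.02 (95% interval -0.45 to 0.49) and -0.02 (95% interval -0.44 to 0.40). Rhbg, an ammonia transporter, was -0.43 (95% interval -0.97 to 0.12) at day 6 and 0.35 (95% interval -0.25 to 0.94) at day 21. It had a median of 78 counts, and 61.4% of its exon bases are also exons of Gm38392 on the same strand, so that reads shared by both make its count uncertain.

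Among the periportal genes, Hal and Gls2 were lower over the days and had wide spreads in HNKO livers. Hal (ENSMUSG00000020017.14, chr10:93488768-93519304, + strand) encodes histidine ammonia-lyase, the first enzyme of histidine breakdown. At day 3 its log2 CPM was 9.37, 9.26, 8.96, 9.54, and 9.55 in WT and 7.88, 8.97, 9.65, 9.61, and 8.07 in HNKO livers. At day 6 it was 9.18, 9.20, 9.31, and 9.32 in WT and 9.18, 9.12, 7.42, 8.60, and 9.29 in HNKO livers. The HNKO values at day 3 lay on both sides of the WT range, with 2 livers under it and 2 above it, whereas at day 6 4 of 5 lay under it, 1 of them by the narrow margin of 9.178 against 9.179. At day 12 WT livers had 8.93, 9.28, 8.85, 9.67, and 9.28, and HNKO livers ranged from 8.46 to 9.36 (median 8.77, n = 6). At day 21 it was 9.18, 9.30, 9.03, 8.90, and 9.31 in WT and 7.98, 9.28, and 8.50 in HNKO livers. In these groups 4 of 6 and 2 of 3 HNKO livers lay under every WT liver. The log2 fold changes were -0.34, -0.39, -0.33, and -0.46, with adjusted p-values of 0.541, 0.44, 0.482, and 0.504. The call over days was lost in 24 of the 38 fits that left out 1 library, with adjusted p up to 0.139 without HNKO library 37 of day 21. It was kept only without WT libraries 5, 14, 16, 21, 24, and 39 or HNKO libraries 4, 6, 7, 22, 31, 35, 36, and 38.

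Gls2 (ENSMUSG00000044005.13, chr10:128194457-128210004, + strand), the liver glutaminase that frees ammonia from glutamine, had values of 8.57, 8.61, 7.94, 8.74, and 8.70 in WT and 7.38, 8.48, 8.86, 8.61, and 7.11 in HNKO livers at day 3. At day 6 they were 8.70, 8.91, 8.74, and 8.77 in WT and 8.47, 8.61, 7.23, 7.78, and 8.64 in HNKO livers. All 5 HNKO livers lay under the 4 WT livers at day 6, and the fold change on the log2 scale was -0.54 (SE 0.26, adjusted p = 0.177). At day 12 WT livers had 8.45, 8.75, 8.45, 8.86, and 8.38, and HNKO livers ranged from 8.15 to 8.65 (median 8.39, n = 6). At day 21 the values were 8.71, 8.06, 8.07, 8.28, and 8.45 in WT and 7.38, 8.13, and 7.87 in HNKO livers. The groups overlapped on both days, with 3 of 6 and 2 of 3 HNKO livers under every WT liver. The call over days was lost in 1 of 38 fits, without HNKO library 37 (adjusted p = 0.0677). Gls2 and Hal were each lower in HNKO in 7 of 7 comparisons within a day and series, by -0.87 to -0.17 and by -0.88 to -0.04.

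Sds, serine dehydratase, turns serine into pyruvate, and its difference over days was -0.02 (95% interval -0.38 to 0.34). HNKO livers had 7.74, 8.08, 5.81, 6.57, and 7.62 at day 6, with 2 under and 3 above all WT livers (7.59, 7.54, 7.39, and 7.15). At day 12 the difference was 0.48 (95% interval -0.18 to 1.15), the highest of any marker on any day. Of its exon bases 21.3% overlap Plbd2 on the opposite strand, and the counting is not stated to use the strand. Hsd17b13, a lipid droplet protein, had values of 8.43, 8.37, 8.27, 8.26, and 8.36 in WT and 7.98, 8.14, and 7.93 in HNKO livers at day 21. These groups did not overlap, and HNKO livers differed by -0.32 (SE 0.20, adjusted p = 0.418). The HNKO livers of day 21 were all from libraries 22 to 41, whereas the WT livers came from both series of library numbers. Hsd17b13 was lower in libraries 22 to 41 in 7 of 7 groups that held both series. Within libraries 22 to 41 the difference at day 21 was -0.294, with 3 HNKO and 2 WT livers. The part of the series in this separation was not tested. At day 3 the values were 8.15, 8.25, 7.89, 7.84, and 7.95 in WT and 8.47, 8.31, 8.13, 7.80, and 8.01 in HNKO livers, which overlapped, and HNKO livers differed by 0.14 (SE 0.17, adjusted p = 0.695). By hepatocyte marker scaling, which moved the median of all genes to 0.407 at day 3, Hsd17b13 was called as higher, at 0.529 (SE 0.188, adjusted p = 0.0321).

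The spread within days, pooled over the 4 days, was wider in HNKO than in WT livers for Hal (0.66 against 0.23 on the log2 scale, each with 15 degrees of freedom), Sds (0.76 against 0.34), and Gls2 (0.55 against 0.25). For Glul it was 0.26 against 0.25, for Tbx3 0.34 against 0.36, and for Hsd17b13 0.32 against 0.24. For Lgr5 it was 0.36 in both, and in Rhbg (0.34 against 0.47), Slc1a2 (0.39 against 0.45), and Axin2 (0.32 against 0.37) it was wider in WT. The difference in spread was not tested. The HNKO liver lowest in Hal was the highest in summed cholangiocyte markers of its group at each of the 4 days, at 400, 751, 217, and 479 CPM. It was lowest of its group in summed hepatocyte markers at days 6 and 21, but the third lowest at days 3 and 12.

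Few markers were called between days of feeding. A test of whether the genotype difference itself varied between days called 0 of the 10 markers (0 at an unadjusted p under 0.05), beside 0.0% of all genes by edgeR, with 966 genes at an unadjusted p under 0.05. DESeq2 called 0 of the 10 markers and 16 genes in all. Between days in WT, 0 of 10 markers were called beside 5.84% of genes (1 marker unadjusted), and DESeq2 called 1, Tbx3, beside 1867 of 20297 genes. Between days in HNKO, 1 of 10 was called beside 7.9%, again Tbx3 (adjusted p = 0.0459). This call was lost in 16 of 38 fits that left out 1 library, and also without a filter, with label series in the model, and by hepatocyte marker scaling. Tbx3 means were 4.82, 4.78, 5.39, and 5.33 in WT and 4.42, 4.18, 4.88, and 4.97 in HNKO at days 3, 6, 12, and 21.

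Livers of one group were then compared to ask whether the markers vary together from mouse to mouse. Deviations from group means were correlated over 38 libraries for all 45 pairs, with 100000 permutations within groups and adjustment over the 45 pairs. All 15 pairs of pericentral markers were positive (r from 0.25 to 0.73, median 0.49), and 8 passed at an adjusted p under 0.05. Axin2 and Tbx3 had r = 0.73, rho = 0.76, adjusted permutation p = 0.000225 and 0.000112. Glul and Slc1a2 had r = 0.69, rho = 0.66, adjusted permutation p = 0.00072 and 0.000975, and Lgr5 and Slc1a2 r = 0.64, rho = 0.69, adjusted permutation p = 0.00075 and 0.00045. Without the 2 libraries farthest from the median of the first gene, r was 0.72, 0.65, and 0.69 for these 3 pairs. Both genes of a pair were measured in the same library and share its depth and normalization.

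Hal, Sds, and Gls2 also varied together. Hal and Gls2 had r = 0.90, rho = 0.86, adjusted permutation p = 0.000225 and 0.000112. Hal and Sds had r = 0.87, rho = 0.88, adjusted permutation p = 0.000225 and 0.000112, and Sds and Gls2 r = 0.84, rho = 0.83, adjusted permutation p = 0.000225 and 0.000112. Without the 2 libraries farthest from the median, r was 0.86, 0.86, and 0.76. For rho the unadjusted p of each of these 3 pairs was 1e-05, the smallest that the permutations can give. In WT livers alone r was 0.62, 0.79, and 0.63, and in HNKO livers alone 0.94, 0.88, and 0.88. Hsd17b13 did not follow them, with r of -0.23, 0.05, and -0.001 (adjusted permutation p from 0.41 to 0.995).

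Between the zones, 1 of 24 pairs passed, Rhbg with Hsd17b13 (r = -0.51, rho = -0.51, adjusted permutation p = 0.0113 and 0.0157). Hsd17b13 was lower in the later label series in 7 of 7 groups that held both series, and Rhbg was higher in 5 of 7. With deviations taken within the label series, a choice made after seeing the data, r of this pair was -0.42 (adjusted permutation p = 0.0992). The same choice gave 0.77 for Axin2 with Tbx3, 0.70 for Glul with Slc1a2, and 0.93 for Hal with Gls2, and 9 of 45 pairs passed in place of 12. Slc1a2 with Hal had r of 0.37 over all libraries (adjusted permutation p = 0.155), 0.76 in HNKO and -0.38 in WT livers, and the difference between genotypes was not tested.

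**Figure D3:**
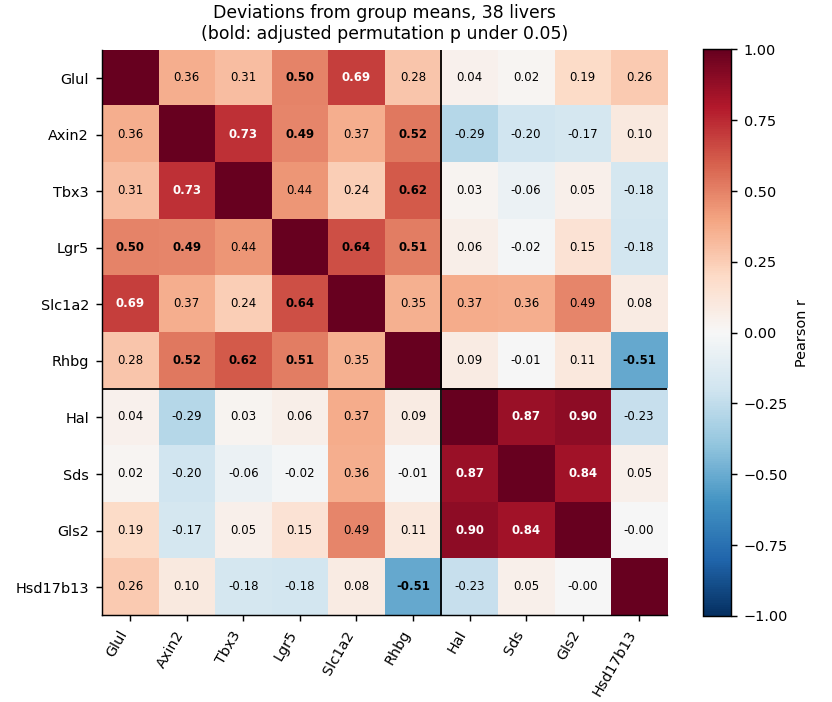
Pearson r (color and number) between deviations of log2 CPM from group means for each pair of the 10 markers (both axes) over 38 livers. Black lines part pericentral from periportal markers, and bold numbers have an adjusted permutation p under 0.05. The pairs of pericentral markers and the pairs of Hal, Sds, and Gls2 are all positive.

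**Figure D4:**
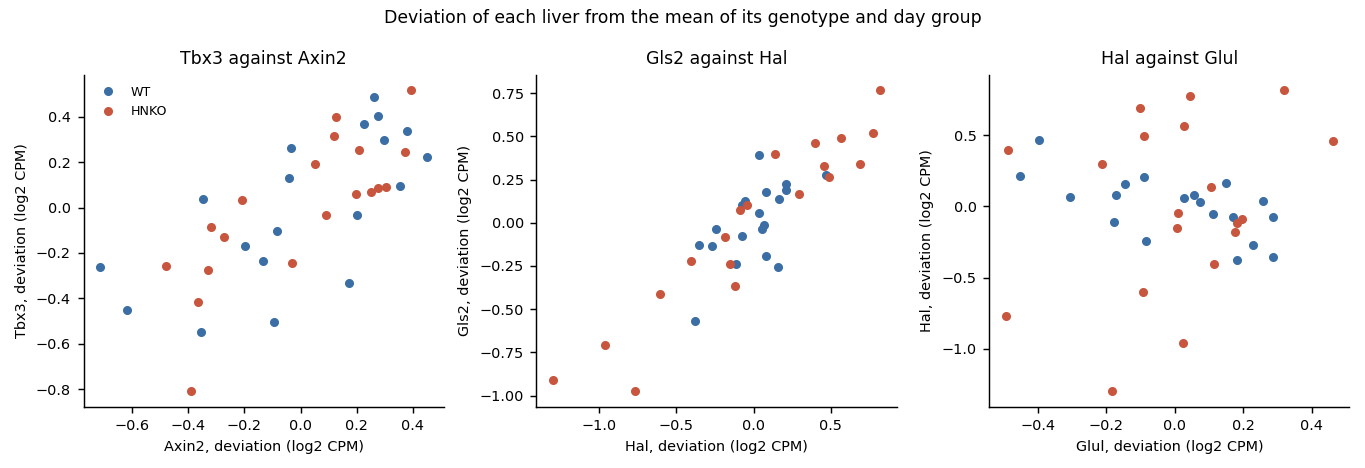
Deviation of log2 CPM from the mean of its genotype and day group for 3 pairs of markers (both axes), with 1 point per liver, WT in blue and HNKO in red. Tbx3 rises with Axin2 (r = 0.73) and Gls2 with Hal (r = 0.90), and Hal shows no such trend with Glul (r = 0.04).

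The genes most like each marker in these deviations, over 38 libraries, are given with Pearson r as a description. For Glul they were Nkd1 (0.74), Lmf1 (0.74), and Fn3krp (0.73), and for Lgr5 Gulo (0.71), Notumos (0.71), and Rnf43 (0.70). For Slc1a2 they were Rnf43 (0.89), Cyp4v3 (0.86), and Gm47904 (0.85), and for Rhbg Znrf3 (0.73), Flcn (0.72), and Gulo (0.71). Nkd1, Rnf43, and Znrf3 encode feedback inhibitors of Wnt signaling, and Gulo makes the last precursor of vitamin C. For Axin2 they were Tenm3 (0.67), Pdzrn3 (0.66), and Dglucy (0.65), and for Tbx3 Rab22a (0.73), Gm38042 (0.71), and CT010445.2 (0.66). For Hal they were Cps1 (0.89), Asl (0.89), and Bdh2 (0.88), for Gls2 Gnmt (0.93), Uroc1 (0.91), and Asl (0.91), and for Sds Asl (0.85), Etnppl (0.84), and Uroc1 (0.82). Cps1 and Asl are urea cycle enzymes, Uroc1 follows Hal in histidine breakdown, and Gnmt is a glycine methyltransferase. For Hsd17b13 they were Capzb (0.86), Sfr1 (0.85), and Rpl17 (0.85), with no gene shared with the other periportal markers.

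Of 13 further pericentral genes of hepatocytes, 9 were called over the 4 days, 8 lower and 1 higher, beside 36.4% of all genes called in this test, 17.3% lower and 19.2% higher. Their median log2 fold change was -0.31. On the scale set by hepatocyte markers, 3 of the 13 were called higher and 3 lower, beside 13979 of 20297 genes called. Nr1i3, the xenobiotic receptor CAR, fell by 0.91 (SE 0.15, adjusted p = 1.73e-05) and the cytochrome P450 gene Cyp1a2 by 0.81 (SE 0.16, adjusted p = 0.000189). When scaled by hepatocyte markers both were still called, but at the smaller values of -0.55 and -0.45. Cyp2e1, an ethanol-oxidizing P450, was -0.67 (SE 0.16, adjusted p = 0.00114) and lost its call on that scale, at -0.32 (adjusted p = 0.0507). Slc13a3, a dicarboxylate transporter, rose by 0.52 (SE 0.11, adjusted p = 0.000438). At day 6, 3 of the 13 were lower beside 12.8% of all genes called, Nr1i3 at -1.21, Cyp1a2 at -0.96, and Lect2 at -0.55, with Lect2 named after its value was seen. At days 3, 12, and 21 edgeR called 0 of the 13, with 7, 2, and 1 at an unadjusted p under 0.05. DESeq2 called 4, 4, 1, and 0 of the 13 at days 3, 6, 12, and 21. Of the 20297 tested genes it called 1428, 2917, 2053, and 994.

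Of 15 further periportal genes, 7 were called over the days, 6 lower and 1 higher, with a median of -0.29, beside the same 36.4% of all genes. On the scale set by hepatocyte markers 3 were higher and 0 lower, beside 13979 of 20297 genes called. Cdh1, the adhesion protein E-cadherin, which cholangiocytes also express, rose by 0.63 (SE 0.10, adjusted p = 3.87e-06), and also at days 3 (0.76) and 6 (0.89). Gldc, of the glycine cleavage system, was -0.60 (SE 0.12, adjusted p = 0.000205). Uroc1 was -0.43 (SE 0.10, adjusted p = 0.000477), and Ftcd, which like Uroc1 serves histidine breakdown, was -0.30 (SE 0.07, adjusted p = 0.000784).

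**Figure D5:**
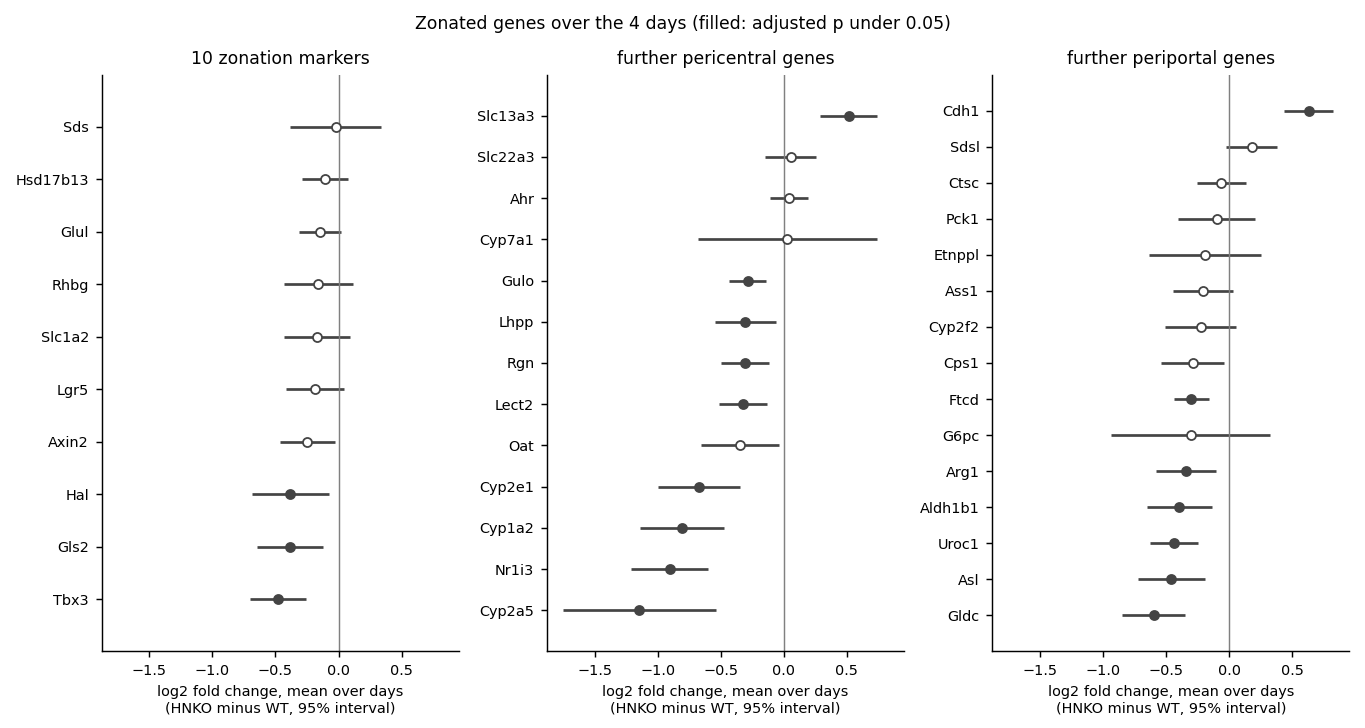
Log2 fold change of the mean over days (x axis, HNKO minus WT, TMM scaling) with 95% intervals for the 10 markers and for 13 further pericentral and 15 further periportal genes. Filled points have an adjusted p under 0.05. Of these, 3, 8, and 6 are lower and 0, 1, and 1 higher. By hepatocyte marker scaling 0, 3, and 0 are lower and 2, 3, and 3 higher, beside 13979 of 20297 genes called.

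Of 31 genes of the Wnt pathway, 12 were called over the days, 8 lower and 4 higher, a share near the 36.4% of all genes. By hepatocyte marker scaling 18 were higher and 0 lower, beside 13979 of 20297 genes called on that scale. Genes called besides the 4 with the smallest p were named after their values were seen. Among 6 ligands and R-spondins, Wnt9b (0.47), Wnt5a (0.69), and Wnt4 (0.35) were higher and Wnt2 (-0.31) was lower. Among 8 receptors, 4 were lower, with Fzd8 at -0.69 and Lgr4 at -0.25 beside Fzd4 and Lrp6. The receptor Fzd4 was -0.37 (SE 0.06, adjusted p = 1.89e-05) and the co-receptor Lrp6 -0.22 (SE 0.04, adjusted p = 3.22e-05). Notum, which inactivates Wnt ligands and is a Wnt target in pericentral hepatocytes, was -0.47 (SE 0.09, adjusted p = 7.08e-05), the only 1 of 5 feedback genes called. Of 9 transducers, Dvl1 was -0.18 (SE 0.04, adjusted p = 0.000787), Apc of the destruction complex was at -0.07, and Ctnnb1, β-catenin itself, was higher at 0.13. Of 3 targets, edgeR called 0 (2 at an unadjusted p under 0.05; DESeq2 0). Lrp6, Dvl1, and Apc were called as higher (0.15, 0.19, and 0.30) by hepatocyte marker scaling.

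Of 18 genes that handle glutamine, histidine, and serine, 10 were called over the days, beside 36.4% of all genes. Of the 10, 8 were lower and 2 higher, and the median of the 18 was -0.27. By hepatocyte marker scaling 6 were higher and 0 lower, beside 13979 of 20297 genes called. Uroc1, Ftcd, Gldc, and Sdsl are also among the 15 further periportal genes, so that the lower calls of Uroc1, Ftcd, and Gldc count in both lists. All 3 genes that follow Hal in histidine breakdown, Uroc1, Ftcd, and Amdhd1 (-0.37, named after its value was seen), were lower, as was Hal. The aspartate aminotransferase Got2 was -0.29 (SE 0.05, adjusted p = 7.13e-05) and the serine hydroxymethyltransferase Shmt1 -0.48 (SE 0.09, adjusted p = 0.000138). Psat1, of serine synthesis, rose by 1.22 (SE 0.26, adjusted p = 0.000396), and was named after its value was seen.

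Among the closest relatives of the markers, 9 of 10 were tested, and Rhcg, a relative of Rhbg, had 0 counts in all 38 libraries. Of the 9, 2 were higher and 2 lower over the days, beside 36.4% of all genes called. By hepatocyte marker scaling 6 were higher and 0 lower, beside 13979 of 20297 genes called. Hsd17b11, which lies on chromosome 5 as Hsd17b13 does, was -0.45 (SE 0.07, adjusted p = 5.93e-06) and also lower at day 6, at -0.68 (SE 0.14, adjusted p = 0.0016). Lgr4 and Axin1 are also among the Wnt genes, and Sdsl among the periportal ones. Tbx2, the relative of Tbx3, rose by 0.29 (SE 0.10, adjusted p = 0.0144), and Lgr4, the relative of Lgr5, was -0.25 (SE 0.08, adjusted p = 0.0133). Of the genes named here as lower in these further lists, Lect2, Ftcd, Wnt2, Lgr4, Lrp6, Dvl1, Apc, and Got2 were above 0 by hepatocyte marker scaling.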

How the data were processed

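The authors sequenced ribosomal RNA-depleted liver RNA as paired 51-base reads, aligned them with STAR 2.7.2b to GRCm38 (mm10), and deposited raw counts per GENCODE gene from featureCounts 1.6.4 (tool versions from the submitters' processing notes). The strand setting is not given in the sources used here. All 10 markers passed a filter on low counts (filterByExpr, minimum count 10, total 15, proportion 0.7), which kept 20297 genes. Libraries were scaled by TMM, and 1 mean per genotype and day was fitted to 38 libraries with edgeR 4.0.16 (quasi-likelihood test, R 4.3.3), with Benjamini-Hochberg adjustment over all tested genes. The SE is the fold change divided by the square root of F. Log2 CPM used a prior count of 2. DESeq2 1.42.0 was an alternative test. Each library came from a separate mouse, so that p-values measure the spread between these mice, and no 2 libraries of a group agreed within sampling noise over the 74 pairs. The fit was run on simulated data with changes larger than those of the markers, which does not show how well changes of the markers' size are found.

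The markers and gene lists were chosen with earlier results of these data known. Named genes were the 10 markers, up to 4 genes of each further list with the smallest p over days, list genes at 0 counts, the 3 genes most like each marker, and Nampt. Other genes were named after their values were seen. One gene that the rule names is not reported here. Alternatives were other scalings, filters, tools, and library sets. Gene positions and exon lengths come from GENCODE M21.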

Additional observations from a re-analysis of the deposited data

Results flagged for a closer look

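In WT livers at day 12, library 16 had a Slc1a2 level of 8.946 log2 CPM and the next highest 8.194, a gap of 0.724 of the range of the group. In WT livers at day 3, library 24 had a Gls2 level of 7.944 log2 CPM and the next lowest 8.567, a gap of 0.785 of the range. These were the 2 groups of the 70 tested with a value that far from the others, and chance alone gives about 1 in 20. The 2 HNKO libraries of day 21 that failed quality control were set beside the others after scaling all 40 libraries at once, so that values differ slightly from those of the 38. On this scale Slc1a2 was at 8.956 log2 CPM in library 17 and 8.693 in library 18, above the highest WT value of 8.551 and the highest HNKO value of 8.468 at that day. Rhbg was at 3.547 log2 CPM in library 17, with the highest WT and HNKO values of that day at 1.89 and 1.821.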

How the results depend on the processing

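Under DESeq2 size factors, DESeq2, a looser or stricter filter on counts, the 2 left-out libraries added, the newer edgeR dispersion, label series in the model, and fits of the 2 groups of a day, the number of markers called at each single day stayed at 0. Scaling by hepatocyte markers gave 1 at day 3, Hsd17b13, beside 6560 of 20297 genes called. Over the days it called 2 markers, neither of them among the 3 of the TMM scale, beside 13979 of 20297 genes. The day effect in WT called 1 marker by DESeq2, Tbx3, and that in HNKO called 0 by hepatocyte marker scaling, without a filter, and with label series in the model. Of correlated pairs, 15 passed by hepatocyte marker scaling, 8 in WT livers, and 7 in HNKO livers, where fewer libraries were used. Hal over days also lost its call without a filter (adjusted p = 0.0656) and with at least 10 counts in every library (adjusted p = 0.0526). Hepatocyte marker scaling turned the sign of Glul (0.294 at day 3, 0.251 at day 6, 0.083 at day 12, 0.237 at day 21, and 0.216 over days), Axin2 (0.17 at day 3, 0.34 at day 6, 0.133 at day 21, and 0.126 over days), Lgr5 (0.241 at day 12 and 0.179 over days), Slc1a2 (0.131 at day 6 and 0.187 over days), Rhbg (0.093 at day 3, 0.089 at day 6, and 0.199 over days), Hal (0.061 at day 6), Sds (0.05 at day 3, 0.41 at day 6, and 0.292 over days), Gls2 (0.027 at day 3 and 0.062 at day 12), and Hsd17b13 (0.393 at day 6, 0.204 at day 12, and 0.273 over days). It moved the median of all genes by 0.407, 0.519, 0.258, and 0.275 at days 3, 6, 12, and 21. Glul at day 21 was 0.063 with the label series covariate, and Lgr5 at day 12 was 0.006 with at least 10 counts in every library.

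With 1 library left out, the number of markers called ranged from 0 to 1 at day 6 (Tbx3, without WT library 28 or HNKO library 6), from 1 to 4 over days (1 without HNKO library 37 of day 21, Tbx3), from 0 to 1 for the day effect in WT (1 without WT libraries 16 and 21 and HNKO library 7), and from 0 to 1 for that in HNKO (0 in 16 of 38 fits). Values whose sign turned were Glul at day 3 from -0.171 to 0.035, Glul at day 21 from -0.152 to 0.012, Axin2 at day 21 from -0.299 to 0.003, Lgr5 at day 6 from -0.171 to 0.159, Lgr5 at day 12 from -0.089 to 0.044, Slc1a2 at day 12 from -0.018 to 0.291, Slc1a2 at day 21 from -0.06 to 0.156, Sds at day 6 from -0.293 to 0.198, Sds at day 21 from -0.906 to 0.132, Sds over days from -0.182 to 0.077, and Hsd17b13 at day 12 from -0.211 to 0.006. None of these values passed the test with all libraries. No paired analysis was possible because the library numbers are unique and the labels tie no mouse of one genotype to one of the other. Groups of 3 to 6 mice set the precision, and Rhbg, with a median of 78 counts, was the least deeply counted marker.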
